A study of Mus musculus with 18 samples.

Results

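The 37 genes described here encode the thin filament, titin and the Z-disc of the heart muscle sarcomere, together with M-band and intercalated disc proteins, enzymes that build or degrade the sarcomere, and the muscle creatine kinases and myoglobin that supply it. They were taken as a list of symbols, without the myosin chains, and all 37 were found among the 25731 gene symbols of the deposited table. All 37 passed the filter on low counts that left 15088 genes for testing. The list was not drawn up from measured values of these hearts, but it was chosen with earlier results of the same libraries known.

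Hearts of 18 adult male C57BL/6 mice of wild-type genotype were taken on day 7 after surgery and their total RNA was sequenced, with 1 library per animal. The SHAM group, the IR group (myocardial ischemia followed by reperfusion) and the IR+Decursin group (that injury plus the plant pyranocoumarin decursin) held 6 animals each. The labels used here name neither how decursin was dosed nor which piece of heart was sampled. Each batch named in the labels holds 1 group, so the effect of a batch and that of its group cannot be told apart.

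In the sarcomere, actin thin filaments are anchored in the Z-disc by alpha-actinin and carry tropomyosin and the troponin complex, which opens the filament to myosin when calcium binds. Titin spans from the Z-disc to the M-band and acts as the spring that sets resting length and passive tension. Proteins at both ends of titin sense strain, and muscle-restricted ubiquitin ligases, chaperones and methyltransferases control how filament proteins are assembled and removed. Adult ventricular muscle uses cardiac isoforms of troponin, and actin and troponin isoforms of fetal heart or skeletal muscle are known to be re-expressed in some forms of cardiac stress.

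The libraries held 27525876 to 34974692 counts. Levels are in CPM, counts relative to the library total, scaled by TMM factors, which centre most genes of a library on the other libraries, and are given as the lowest, the median and the highest of the 6 libraries of a group. The counts of 3 libraries (IR 3, IR 4 and IR+Decursin 2) go against the label of male sex, with 14072 to 14232 counts of Xist, the RNA of the inactive X chromosome, against at most 8 in the other 15. The library labelled IR+Decursin 6 stood apart in another way: 7.54% of its counts fell on the gene model Gm26917, and its collagen and macrophage transcripts lay near those of SHAM. The counts of called members are given with and without these libraries. Of 12 markers of skeletal muscle, which shares many sarcomere genes with heart, 11 stayed under 1 CPM in every library, and Mylpf reached 1.04 CPM in SHAM. Summed levels of 7 atrial markers were 105 to 223 CPM in SHAM. They ranged widely in IR (56.1 to 716 CPM) and IR+Decursin (60.7 to 797 CPM). None of the 6 markers that were tested was called.

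Per length, the members covered a wide range of levels in SHAM hearts. In FPKM (counts per kilobase of gene length, scaled by the library total without TMM factors), Mb, the oxygen store myoglobin, was highest at 9854 ± 636 (mean ± SD, n = 6), followed by cardiac actin, Actc1, at 7400.1 ± 477. Cardiac troponin T (Tnnt2), the calcium-binding troponin C (Tnnc1) and the inhibitory cardiac troponin I (Tnni3) came next at 4389 ± 102, 3374 ± 272 and 2454 ± 207. The mitochondrial and cytosolic muscle creatine kinases Ckmt2 (1639 ± 158) and Ckm (1582 ± 122) and alpha-tropomyosin Tpm1 (1489 ± 100.02) followed, and these neighbours lay within each other's spread. Titin, Ttn, had about the CPM of Ckm (medians of 2575 and 2461) but stood at 19.0 ± 2.71 FPKM, since its gene model is 117640 bases long. Its level did not differ beyond the spread from Fbxo32 (19.4 ± 2.54), Mypn (18.2 ± 5.19) or Nebl (17.1 ± 1.58). Tnni1, the slow skeletal and fetal troponin I, was lowest at 0.0577 ± 0.0428 FPKM.

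Promoters are printed for 4 members that stand for different behaviours in the injured hearts: both sarcomeric actin genes, Myoz2 as the Z-disc gene with the largest fall, and Ankrd1, a strain-responsive gene whose point estimate was higher. The windows run from 250 bases before to 50 bases after the RefSeq start (build GRCm38.p6, older than the GRCm39 build of the counts) and are written 5′ to 3′ on the strand of the gene, which is the minus strand for all 4. Capitals mark matches to a CArG box (the site of serum response factor), the M-CAT motif CATTCC (the site of TEAD factors; GGAATG on the opposite strand), a MEF2 site and TATAAA. The Acta1 window lies at chr8:123894726-123895025, Actc1 at chr2:114052826-114053125, Myoz2 at chr3:123034938-123035237 and Ankrd1 at chr19:36119795-36120094.
Acta1: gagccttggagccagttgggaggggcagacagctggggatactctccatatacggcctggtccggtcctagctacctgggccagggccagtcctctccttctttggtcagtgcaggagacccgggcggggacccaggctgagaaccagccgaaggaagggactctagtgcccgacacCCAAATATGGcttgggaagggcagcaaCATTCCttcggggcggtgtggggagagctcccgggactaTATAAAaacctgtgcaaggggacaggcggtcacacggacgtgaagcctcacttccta
Actc1: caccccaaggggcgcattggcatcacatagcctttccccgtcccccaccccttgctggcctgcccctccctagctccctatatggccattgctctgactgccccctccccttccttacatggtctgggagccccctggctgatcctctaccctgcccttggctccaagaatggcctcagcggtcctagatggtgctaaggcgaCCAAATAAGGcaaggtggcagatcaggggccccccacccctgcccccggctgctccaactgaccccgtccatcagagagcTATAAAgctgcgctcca
Myoz2: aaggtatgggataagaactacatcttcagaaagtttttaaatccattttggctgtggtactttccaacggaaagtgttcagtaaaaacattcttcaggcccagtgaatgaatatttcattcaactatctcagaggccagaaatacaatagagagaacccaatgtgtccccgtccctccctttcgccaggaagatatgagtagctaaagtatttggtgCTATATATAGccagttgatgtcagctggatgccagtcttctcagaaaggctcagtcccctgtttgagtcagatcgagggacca
Ankrd1: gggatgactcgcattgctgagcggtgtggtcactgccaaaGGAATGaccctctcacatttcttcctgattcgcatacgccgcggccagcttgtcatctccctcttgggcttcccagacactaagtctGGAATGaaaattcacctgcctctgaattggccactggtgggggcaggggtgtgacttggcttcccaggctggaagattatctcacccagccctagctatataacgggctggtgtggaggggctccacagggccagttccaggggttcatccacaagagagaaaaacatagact

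Both actin windows carried a CArG box on the strand of the gene, CCAAATATGG in Acta1 and CCAAATAAGG in Actc1, and TATAAA. Counted from the RefSeq start, TATAAA began at -7 in Acta1 and at 34, after the start, in Actc1. The Acta1 window also held 1 M-CAT motif, the Ankrd1 window 2 on the opposite strand, and the Myoz2 window the MEF2 match CTATATATAG. RefSeq windows were found for 30 of the 37 members, 42 windows in all. Searching both strands, a MEF2 site was in 5 of the 42 windows (11.9%, against 0.557% of 32851 windows of all genes), a CArG box in 6 (14.3% against 1.63%), M-CAT in 12 (28.6% against 14.7%) and TATAAA in 6 (14.3% against 13.6%). A MEF2 site can contain letters of a TATA-like run, so those matches may overlap. These are letter matches, not measured binding sites.

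The first comparison asks how these genes stood on day 7 after ischemia-reperfusion. In IR hearts 29 of the 37 members fell and 0 rose in edgeR's quasi-likelihood test at an adjusted p under 0.05 over all genes, where 21.7% of all genes fell and 25.3% rose. At an unadjusted p under 0.05, 1 member (Ankrd1) was higher, DESeq2 called it as a rise, and voom with quality weights called 0 rises. The median log2 fold change was -0.52 for the members and -0.00 for all genes tested. For 20 members every IR library lay below every SHAM library, as for 11.6% of all genes. The members together took 9.57 to 10.8% of the counts that were not mitochondrial in SHAM, 6.56 to 8.12% in IR and 7.32 to 9.35% in IR+Decursin. The falls were deepest for creatine kinases and myoglobin (median -1.16), then thin filament (-0.68), ubiquitin ligases (-0.54), titin and M-band (-0.51), methyltransferases (-0.46) and Z-disc (-0.44), while strain, disc and desmin genes stood at -0.04. With scaling to cardiomyocyte genes, described further on, creatine kinases and myoglobin (-0.70), thin filament (-0.22), ubiquitin ligases (-0.07) and titin and M-band (-0.05) stayed below 0, while methyltransferases stood at 0.01, Z-disc at 0.02 and strain, disc and desmin genes at 0.42. The median of all genes on that scale was 0.47, above each of these role groups. In bulk tissue, fewer cardiomyocytes and less RNA per cardiomyocyte cannot be told apart.

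**Figure D1:**
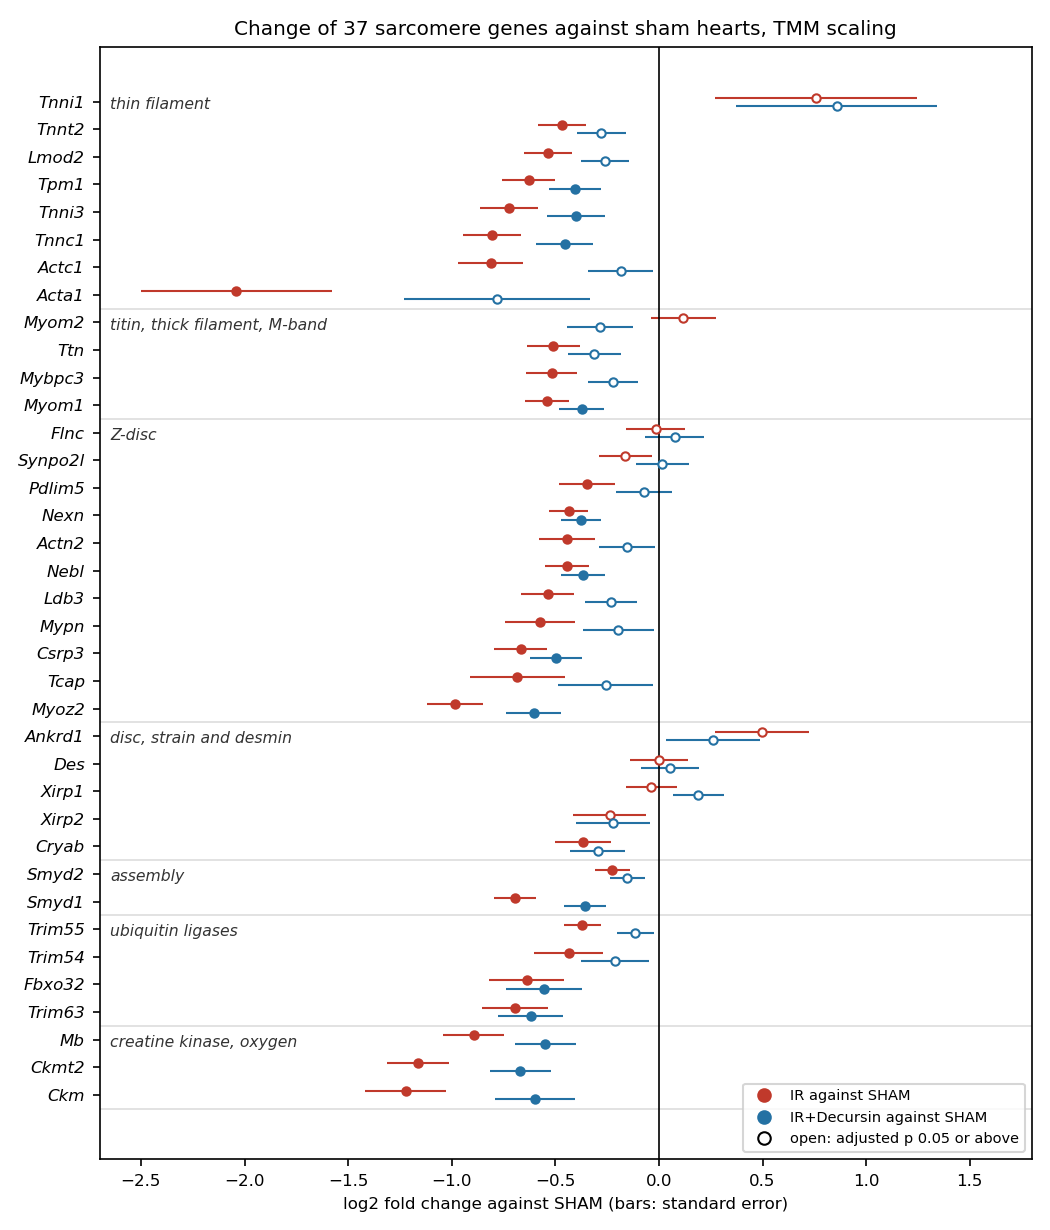
Log2 fold changes (x axis) of the 37 members (rows, grouped by role) in IR against SHAM (red) and IR+Decursin against SHAM (blue), with bars of 1 standard error, filled where the adjusted p is under 0.05. All 29 filled red points and all 14 filled blue points lie left of 0 with TMM scaling. With the libraries scaled to 14 other cardiomyocyte genes, 13 of the 34 negative IR estimates turn positive. On that scale the median of all genes is 0.47.

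Other cell types moved in the same libraries, where 21.7% of all genes fell and 25.3% rose in IR. All 8 macrophage markers rose in IR, their summed level going from 378 to 514 CPM in SHAM to 1199 to 2636 in IR and 521 to 1575 in IR+Decursin. All 7 fibroblast markers rose as well (1143 to 1377, 4827 to 6195 and 1350.0 to 6329 CPM), and none of these markers was at 0 in any group. Of 14 cardiomyocyte genes outside the sarcomere, such as the calcium store protein gene Casq2 (-0.70), 9 fell and 0 rose in IR, with a median of -0.54. The part of this change in cell make-up in the falls of the sarcomere genes was not tested.

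Among thin filament genes 7 of 8 fell in IR, and the same 7 were lower under each of 5 library scalings, 6 of them called with total counts and 3 with scaling to cardiomyocyte genes. Acta1, skeletal alpha-actin, which adult mouse heart expresses at a low level beside cardiac actin, had 345, 584 and 1158 CPM in SHAM, 70.9, 173 and 308 in IR and 171, 339 and 779 in IR+Decursin. Every IR library lay under the lowest SHAM library, and 3 of 6 IR+Decursin libraries did. Acta1 fell more than any other member (log2 fold change -2.04 ± 0.46, SE; adjusted p = 0.00175), to 24.3% of SHAM. Actc1, the main actin of adult heart, went from 11231, 11686 and 13852 CPM in SHAM to 5255, 7374 and 8716 in IR, and IR+Decursin had 6855, 11158 and 14279.9. No IR library reached the SHAM range, whereas IR+Decursin 5 exceeded it (-0.81 ± 0.16, adjusted p = 0.000326 for IR). These genes encode near-identical actins, and no source used here says how reads that match both were counted. The split between both genes is therefore uncertain.

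The troponin genes moved by unequal amounts. Tnnc1 had 2317, 2766 and 3008 CPM in SHAM, 1256, 1479 and 1900.0 in IR and 1470.0, 1964 and 2587 in IR+Decursin, and it fell to 57.2% of SHAM in IR (-0.81 ± 0.14, adjusted p = 0.000102). Tnni3 had 4055, 4497 and 5224 CPM in SHAM, 2211, 2690.0 and 3488 in IR and 2488, 3431 and 4353 in IR+Decursin (-0.73 ± 0.14, adjusted p = 0.000311). Tnnt2 had 6715, 7093 and 7485 CPM in SHAM, 4029, 5075 and 6109.7 in IR and 4292, 5828 and 6854 in IR+Decursin (-0.47 ± 0.12, adjusted p = 0.00260). Tnnt2 had the lowest coefficient of variation of all members in SHAM (4.22%). For all 3 troponin genes the IR and SHAM ranges did not meet. The fetal troponin I gene Tnni1 stayed at trace level, with 0.0344, 0.160 and 0.323 CPM in SHAM, 0.186, 0.275 and 0.437 in IR and 0.0926, 0.328 and 0.498 in IR+Decursin, which is 1 to 8, 7 to 17 and 3 to 19 counts per library. Its difference was not called (0.76 ± 0.49, adjusted p = 0.211). Tpm1 (-0.63) and Lmod2, leiomodin-2, which lengthens thin filaments (-0.54), fell without overlap of the groups.

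**Figure D2:**
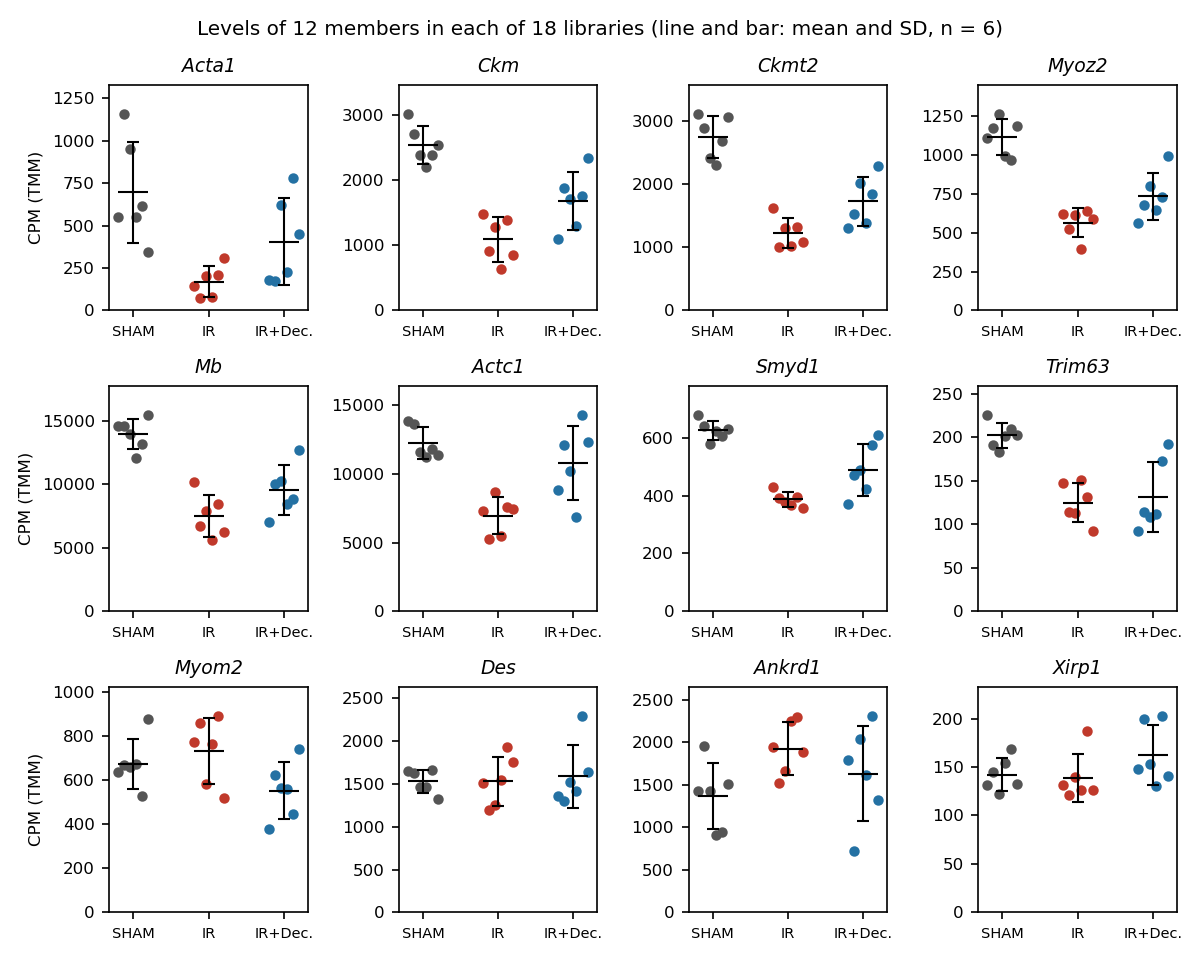
CPM with TMM scaling (y axes, from 0) of 12 members in each of the 6 SHAM (grey), IR (red) and IR+Decursin (blue) libraries, with the mean and SD. IR libraries of Acta1, Ckm, Ckmt2, Myoz2, Mb, Actc1, Smyd1 and Trim63 all lie below the SHAM libraries, and those of Myom2, Des, Ankrd1 and Xirp1 overlap them.

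Of the titin, thick filament and M-band genes 3 of 4 fell in IR, and the same 3 were lower under each of 5 scalings, although only Myom1 was called with total counts and none with scaling to cardiomyocyte genes. Ttn had 2093, 2575 and 3167 CPM in SHAM, 1552, 1757 and 2142 in IR and 1775, 1890.5 and 2869 in IR+Decursin, with IR 5 alone inside the SHAM range (-0.51 ± 0.13, adjusted p = 0.00262). Mybpc3, cardiac myosin binding protein C, fell with no overlap (-0.52, adjusted p = 0.00173). The myomesins, which crosslink myosin at the M-band, parted. Myom1, the myomesin of all striated muscle, had 1233, 1375 and 1493 CPM in SHAM and 773, 894 and 1134 in IR, without overlap (-0.54 ± 0.11, adjusted p = 0.000387), and 875, 1007 and 1322 in IR+Decursin. Myom2, or M-protein, had 529, 666 and 878 CPM in SHAM, 519, 770.0 and 893 in IR and 379.6, 564 and 742 in IR+Decursin, with IR spanning the whole SHAM range, and was not called (0.12 ± 0.16, adjusted p = 0.567). With total counts as scaling Myom2 was called higher (0.43, adjusted p = 0.0174), where 46.4% of all genes rose.

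Of the Z-disc genes 9 of 11 fell in IR, but 2 were higher with total counts (Synpo2l and Flnc, not called) and 6 with scaling to cardiomyocyte genes (these and Actn2, Nebl, Nexn and Pdlim5). The called falls numbered 2 with total counts and 1 with scaling to cardiomyocyte genes (7.01% and 3.12% of all genes). The median of all genes was 0.31 and 0.47 on these scales. Myoz2, calsarcin-1, which tethers calcineurin to alpha-actinin, had 968, 1141 and 1262 CPM in SHAM, 396, 601 and 641 in IR and 559, 702 and 993 in IR+Decursin. It fell to 50.5% of SHAM, every IR library lying under every SHAM library (-0.98 ± 0.13, adjusted p = 1.27e-05). Csrp3, muscle LIM protein (-0.67), the nebulin-like Nebl (-0.44) and the actin-binding nexilin gene Nexn (-0.44) also fell without overlap. The other genes that fell did so with overlapping groups: the titin cap Tcap (-0.68), myopalladin Mypn (-0.57), Ldb3, the PDZ-LIM protein Cypher (-0.54), alpha-actinin-2 Actn2 (-0.44) and the PDZ-LIM gene Pdlim5 (-0.35). Tcap was uneven within SHAM, where SHAM 5 had 559 CPM against a median of 1319.8. Pdlim5 was close to the threshold (adjusted p = 0.0412) and was not called when any of 8 libraries was left out, namely SHAM 2 to 5 and IR 1 to 4 (adjusted p = 0.0527 to 0.101). Synpo2l, a stretch-associated Z-disc protein (-0.16), and filamin C, Flnc (-0.02), were not called, and Synpo2l was without IR 5 (-0.29, adjusted p = 0.0300).

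Genes of the intercalated disc, of strain sensing and of the desmin network had 1 of 5 members called. With TMM factors Ankrd1 alone was higher, with total counts 4 of 5 were and with scaling to cardiomyocyte genes all 5. The medians of these 5 genes, 0.27 with total counts and 0.42 with cardiomyocyte genes, lay slightly below those of all genes (0.31 and 0.47). Of all genes, 46.4% and 58.3% rose on these scales. Ankrd1, an ankyrin repeat protein that binds titin and responds to strain, had 911, 1429 and 1953 CPM in SHAM, 1522, 1911 and 2299 in IR and 717, 1701 and 2309 in IR+Decursin. Only 2 of 6 IR libraries exceeded the SHAM range, and the difference was not called by edgeR (0.50 ± 0.23, adjusted p = 0.0779). DESeq2 called it (0.49, adjusted p = 0.0460), as did edgeR without SHAM 2 (0.63, adjusted p = 0.0320) or without IR+Decursin 2 (0.50, adjusted p = 0.0251). The Xin actin-binding repeat genes of the intercalated disc were not called either. Xirp1 had 122, 138 and 168 CPM in SHAM, 121, 129 and 187 in IR and 130.0, 150.2 and 203 in IR+Decursin (-0.04 ± 0.12, adjusted p = 0.831). Xirp2 had 598, 628 and 949 CPM in SHAM, 434, 556 and 844 in IR and 333, 648 and 707 in IR+Decursin (-0.24 ± 0.18, adjusted p = 0.282). Desmin, Des, the intermediate filament that links Z-discs, had 1324, 1542 and 1660.0 CPM in SHAM, 1188, 1523 and 1925 in IR and 1295, 1469 and 2289 in IR+Decursin, with the same central level in SHAM and IR (-0.00 ± 0.14). IR+Decursin 5 alone exceeded the SHAM and IR ranges of Des. Its chaperone Cryab fell (-0.37 ± 0.13, adjusted p = 0.0300), but not when SHAM 2, IR 2 or IR 3 was left out (adjusted p = 0.0658 to 0.102).

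Both methyltransferase genes fell in IR, by different amounts. Smyd1, a muscle-restricted enzyme needed for sarcomere assembly, had 579, 626 and 678 CPM in SHAM, 358, 385 and 429.7 in IR and 369, 479 and 609 in IR+Decursin, without overlap of IR and SHAM (-0.70 ± 0.10, adjusted p = 2.52e-05). Smyd2, which is expressed in many tissues and methylates the chaperone Hsp90, had 83.9, 101 and 109 CPM in SHAM, 68.4, 87.9 and 91.6 in IR and 75.2, 91.1 and 99.1 in IR+Decursin, with overlap (-0.23 ± 0.09, adjusted p = 0.0358). Smyd2 was the smallest fall that was called, it lost the call without any of 6 libraries (SHAM 1, 2, 3 and 6, IR 2 and 6; adjusted p = 0.0513 to 0.0937), and its sign turned with total counts (0.08), with FPKM (0.08) and with scaling to cardiomyocyte genes (0.25).

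All 4 ubiquitin ligase genes fell in IR with TMM factors, and only Trim63 was called with total counts. None was called with scaling to cardiomyocyte genes, where Trim54 and Trim55 turned positive (0.02 and 0.09). The median of all genes was 0.47 there. Trim63, or MuRF1, which marks thick filament proteins for degradation, had 184, 202 and 226 CPM in SHAM, 92.3, 123 and 152 in IR and 92.7, 113 and 193 in IR+Decursin (-0.70 ± 0.16, adjusted p = 0.00129). Fbxo32, the F-box protein atrogin-1, had 132, 147 and 178 CPM in SHAM, 76.1, 101 and 116 in IR and 58.3, 99.1 and 151 in IR+Decursin (-0.64 ± 0.18, adjusted p = 0.00743). IR libraries of both genes lay under every SHAM library. With total counts Fbxo32 was not called (adjusted p = 0.0803), and with scaling to cardiomyocyte genes neither Trim63 (0.0743) nor Fbxo32 (0.348) was. The related Trim55 (-0.37) fell without overlap, and Trim54 (-0.44, adjusted p = 0.0367) was not called when any of 7 libraries was left out, namely SHAM 2 to 5 and IR 2, 3 and 6 (adjusted p = 0.0551 to 0.0837).

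The 3 genes of energy and oxygen supply fell most as a group, and did so under each of 5 scalings. Ckm, the creatine kinase docked at the M-band, had 2195, 2461 and 3009 CPM in SHAM, 627, 1089.7 and 1477 in IR and 1098, 1726 and 2329.7 in IR+Decursin. Ckm fell to 42.9% of SHAM in IR (-1.22 ± 0.20, adjusted p = 5.52e-05). Ckmt2, which makes phosphocreatine at the mitochondrial membrane, had 2301, 2783 and 3111 CPM in SHAM, 1003, 1194 and 1625 in IR and 1299, 1683 and 2283 in IR+Decursin and fell to 44.7% (-1.16 ± 0.15, adjusted p = 7.64e-06). Mb had 12070.1, 14247 and 15439 CPM in SHAM, 5627, 7285 and 10157 in IR and 7026, 9411 and 12685 in IR+Decursin and fell to 53.8% (-0.89 ± 0.15, adjusted p = 6.88e-05). In none of the 3 did an IR library reach the SHAM range. Without the libraries with Xist the falls were -1.93 for Acta1, -1.13 for Ckm and for Ckmt2, -0.91 for Myoz2, -0.84 for Tnnc1, -0.83 for Actc1 and -0.82 for Mb, all called. In that fit 23 members fell in all (17.1% of all genes). Tcap (adjusted p = 0.0595), Mypn (0.0618), Actn2 (0.05004, just above the threshold), Pdlim5 (0.162), Cryab (0.129) and Trim54 (0.116) were lower but not called. Leaving out IR+Decursin 6 as well gave 25 falls and 1 rise, of Ankrd1 (17.8% and 21.6% of all genes).

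How many members fell depended on what the libraries were scaled to. With total counts in place of TMM factors the median of all genes moved from -0.00 to 0.31, 86.9% of all calls were upward (53.8% with TMM), and 14 members fell while Ankrd1 and Myom2 rose (7.01% and 46.4% of all genes). Relative to all genes the members stood at -0.52 under both scalings. A change of scaling shifts all genes by nearly the same amount, so this value could hardly differ and does not weigh 1 scaling against another. Scaling each library to the 14 cardiomyocyte genes outside the sarcomere expresses a change relative to those transcripts. On that scale 8 members fell, namely Acta1, Ckm, Ckmt2, Myoz2, Mb, Actc1, Tnnc1 and Smyd1, and 6 rose, namely Ankrd1, Myom2, Des, Flnc, Xirp1 and Tnni1, where 3.12% of all genes fell and 58.3% rose. The median of all genes was 0.47 there, and the members stood at -0.53 relative to it, again nearly fixed by construction. The same 8 genes fell under all 5 scalings tried.

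**Figure D3:**
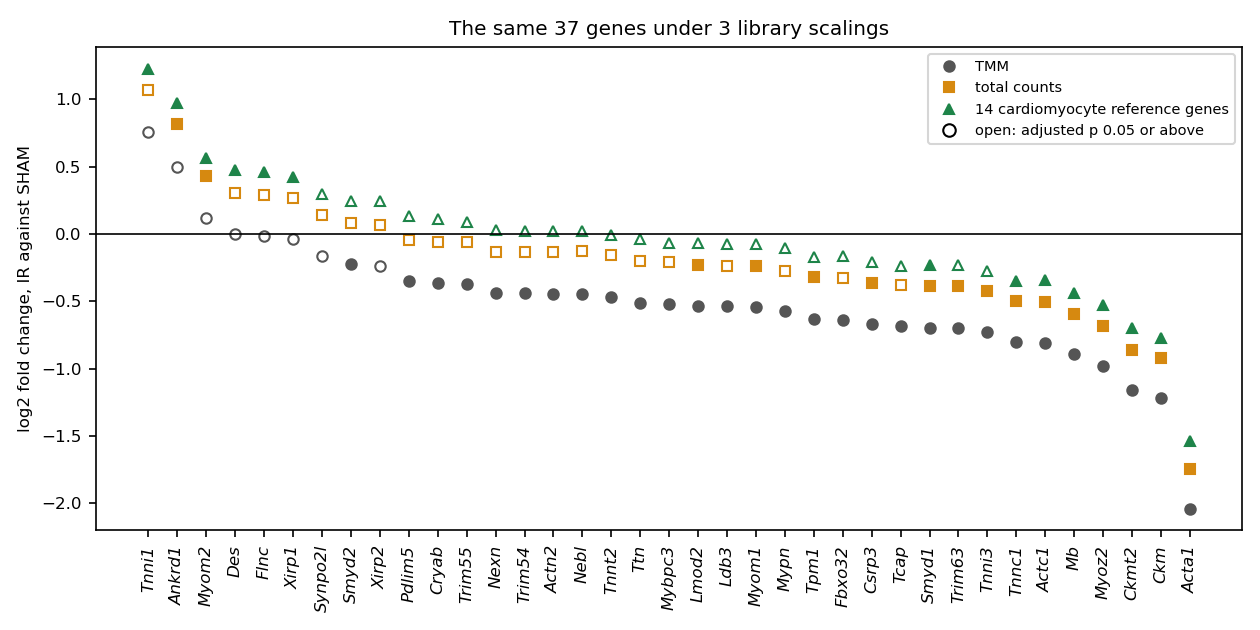
Log2 fold change in IR against SHAM (y axis) of the 37 members, ordered by the TMM value, with TMM factors (circles), total counts (squares) and scaling to 14 cardiomyocyte genes (triangles), filled where the adjusted p is under 0.05. Against TMM, total counts move each member up by 0.30 to 0.32 and scaling to the cardiomyocyte genes by 0.44 to 0.50, so that 29, 14 and 8 members fall and 0, 2 and 6 rise.

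The second comparison asks how hearts with decursin differed from IR hearts without it. No member was called by edgeR, as was no gene at all (0.0% of genes), while 2712 of all genes and 16 members had an unadjusted p under 0.05. The members' point estimates were higher in IR+Decursin for 35 of 37, with a median of 0.22 against -0.02 for all genes. This comparison shares the IR libraries with the first, so a level that happens to be low in IR enters both. Actc1 had the smallest p of the members (0.63 ± 0.16, adjusted p = 0.0958 by edgeR). In Actc1, 5 of 6 IR+Decursin libraries lay above every IR library. By role, the medians were 0.49 for creatine kinases and myoglobin, 0.30 for thin filament and 0.27 for Z-disc genes. After Actc1 came Ckmt2 (0.49 ± 0.15, adjusted p = 0.126) and Smyd1 (0.34 ± 0.10, adjusted p = 0.130), with 3 and 4 libraries above the IR range. Only Myom2 (-0.40 ± 0.16, adjusted p = 0.204) and Ankrd1 (-0.24 ± 0.23, adjusted p = 0.594) were lower.

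Some calls in this comparison turned on the tool or on 1 library. DESeq2 called 374 genes higher and 96 lower, (2.48% of genes higher), among them Actc1 (adjusted p = 0.00745), Ckm (0.0324), Ckmt2 (0.0289) and Smyd1 (0.0306) as higher, and voom with quality weights called none. Without IR+Decursin 1, edgeR called 6 members higher, namely Actc1, Ckm, Ckmt2, Myoz2, Smyd1 and Trim55, where 4.62% of all genes were called higher. In the other direction, leaving out IR+Decursin 6 brought the median of the members from 0.22 to 0.17, and leaving out the libraries with Xist as well brought it to 0.12. Estimates scaled to the 14 cardiomyocyte genes had a median of -0.02, with 18 members higher and 19 lower (27 and 10 with total counts). Compared with TMM factors, the members' estimates shifted by -0.12 to -0.08 with total counts and by -0.33 to -0.18 with the cardiomyocyte genes. Relative to the median of all genes the members stood at 0.24 with TMM factors, 0.23 with total counts and 0.21 with the cardiomyocyte genes. Summed macrophage markers ran from 521 to 1575 CPM in IR+Decursin and from 1199 to 2636 CPM in IR, so the groups overlapped. The 521 CPM was that of IR+Decursin 6, and the next lowest library of the group had 965 CPM. Of the 8 markers 0 were called by edgeR in this comparison, as were 0.0% of all genes, and the markers' part in the result was not tested.

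Against SHAM, IR+Decursin hearts had 14 members that fell and 0 that rose, where 11.8% of all genes fell and 17.5% rose. At an unadjusted p under 0.05, 0 members were higher, and DESeq2 and voom called 0 rises. The median of the members was -0.28. This comparison shares the SHAM libraries with the first. Among those called, Ckmt2 fell furthest (-0.67 ± 0.15, adjusted p = 0.00252) and was the only member without overlap of the groups, where 2.9% of all genes had every IR+Decursin library below every SHAM library. Trim63 (-0.62 ± 0.16, adjusted p = 0.00684), Myoz2 (-0.60 ± 0.13, adjusted p = 0.00251), Ckm (-0.60 ± 0.19, adjusted p = 0.0252), Fbxo32 (-0.56 ± 0.18, adjusted p = 0.0278) and Mb (-0.55 ± 0.15, adjusted p = 0.00894) followed. In Trim63, Myoz2, Ckm and Mb 5 of 6 IR+Decursin libraries lay under every SHAM library, and in Fbxo32 4 did. The other 8 that fell were Csrp3, Tnnc1, Tpm1, Tnni3, Nexn, Myom1, Nebl and Smyd1, at -0.50 to -0.36. With total counts 5 members fell (Ckmt2, Csrp3, Mb, Myoz2 and Trim63) and Xirp1 rose, and with scaling to cardiomyocyte genes Ckmt2, Mb, Myoz2 and Trim63 fell and 1 member rose (2.5% and 31.7% of all genes with total counts, 1.35% and 27.7% with cardiomyocyte genes).

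Actin and most Z-disc genes were among those not called against SHAM in IR+Decursin. Actc1 stood at -0.18 ± 0.16 (adjusted p = 0.404) and Acta1, with its wide spread, at -0.78 ± 0.45 (adjusted p = 0.205). Tnnt2 (-0.28 ± 0.12), Myom2 (-0.29 ± 0.16), Xirp2 (-0.22 ± 0.18) and Smyd2 (-0.15 ± 0.09) were lower and not called, and Xirp1 (0.19 ± 0.12), Ankrd1 (0.26 ± 0.23) and the trace transcript Tnni1 (0.86 ± 0.49) were higher and not called. An adjusted p above the threshold does not show that these genes were at the SHAM level. Leaving out IR+Decursin 6 raised the count of falls from 14 to 20, while the share of all genes went from 11.8% to 16.6%. Leaving out IR+Decursin 1 or IR+Decursin 4 lowered the count to 10 (8.61% and 8.73% of all genes). Tnni3 lost its call without any of SHAM 2, 3 and 6 and IR+Decursin 1, 3, 4 and 5 (adjusted p = 0.0542 to 0.0855), and Fbxo32 without SHAM 2 or 5 or IR+Decursin 1, 2 or 4 (0.0508 to 0.0642). Ckm (0.0603 to 0.0613) and Tpm1 (0.0512 to 0.0539) lost theirs without IR+Decursin 1 or 4. Without the libraries with Xist 13 members fell (9.02% of all genes). Without these and IR+Decursin 6, 17 fell (12.5% of all genes) and Ankrd1 rose (18.2%).

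The 6 hearts with decursin differed more among themselves in these genes than the SHAM hearts. Over the 36 members other than Tnni1, the median coefficient of variation was 10.9% for SHAM, 17.6% for IR and 20.1% for IR+Decursin, with no test of the difference. Counting members inside the range of the 6 SHAM libraries, IR libraries had 3 to 11 of 37. IR+Decursin 1 to 5 had 6, 10, 12, 7 and 13, and IR+Decursin 6 had 33. The same count was not made over all genes, so these numbers do not show whether the pattern is particular to the members. That library also had 118 CPM of the collagen gene Col1a1 (80.4 to 128 in SHAM) and a summed macrophage level of 521 CPM (378 to 514 in SHAM). IR+Decursin 5 had the next lowest Col1a1, 279.7 CPM, and the highest Actc1 and Acta1 of its group. What sets IR+Decursin 6 apart was not tested.

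**Figure D4:**
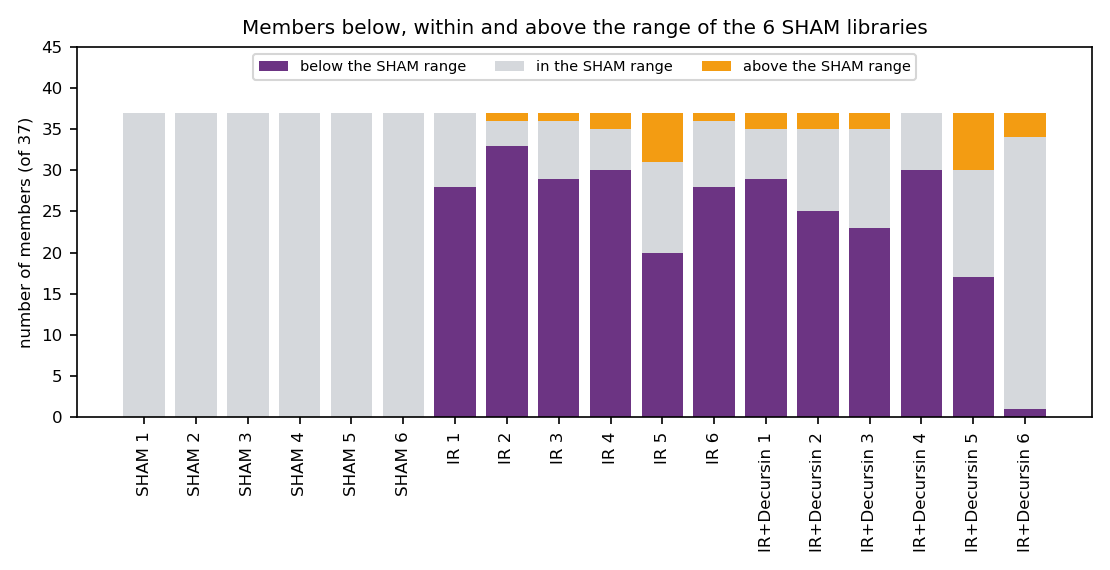
Number of members (y axis, of 37) below (purple), within (grey) and above (orange) the range of the 6 SHAM libraries, for each of the 18 libraries. SHAM libraries lie within their own range by construction, IR libraries have 20 to 33 members below it, and IR+Decursin 6 has 1. The same count was not made over all genes.

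Ratios of related genes within a library need no scaling factor, and 8 such pairs were compared with two-sided exact permutation tests over 924 assignments, adjusted over 24 tests. The log2 ratio of counts of Acta1 to Actc1 was -5.04 to -3.55 in SHAM (median -4.30), -6.21 to -4.59 in IR (median -5.55) and -6.14 to -4.05 in IR+Decursin (median -4.85). Skeletal actin thus fell relative to cardiac actin in IR (difference -1.29, exact permutation p = 0.00649, adjusted p = 0.0390). The ratio of Myom2 to Myom1 was -1.38 to -0.50 in SHAM, -0.78 to -0.00 in IR and -1.30 to -0.63 in IR+Decursin. It was higher in IR than in SHAM (0.66, exact permutation p = 0.00649, adjusted p = 0.0390) and lower in IR+Decursin than in IR (-0.58, exact permutation p = 0.00649, adjusted p = 0.0390). Smyd2 rose relative to Smyd1 in IR (0.47, exact permutation p = 0.00433, adjusted p = 0.0390), from -2.86 to -2.51 in SHAM to -2.52 to -2.04 in IR, with IR+Decursin at -2.77 to -2.25. In each of these ratios the groups overlapped.

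The other ratios did not pass in any comparison. Tnni1 to Tnni3, which rests on trace counts of Tnni1, differed by 1.69 in IR against SHAM (exact permutation p = 0.0173, adjusted p = 0.0831), and Tnnt2 to Tnni3 by 0.26 (p = 0.0238, adjusted p = 0.0952, exact permutation). Ckm to Ckmt2 (-0.10, adjusted p = 0.663, exact permutation), Trim63 to Fbxo32 (-0.07, adjusted p = 0.713) and Xirp1 to Xirp2 (0.21, adjusted p = 0.447) lay within the spread of the libraries. Against SHAM, none of the 8 ratios passed in IR+Decursin, where Myom2 to Myom1 differed by 0.08 and Acta1 to Actc1 by -0.71 (adjusted p = 0.713 and 0.242, exact permutation). The 4 calls kept their direction but not their side of the threshold when 10 of 12 libraries were left out singly (adjusted p = 0.0519 to 0.0831) or when those with Xist were (0.114). The calls against SHAM held only without SHAM 6 or IR 6, and the one against IR only without IR 6 or IR+Decursin 2. Leaving out a single library does not raise the smallest p such a test can reach, whereas leaving out those with Xist does.

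**Figure D5:**
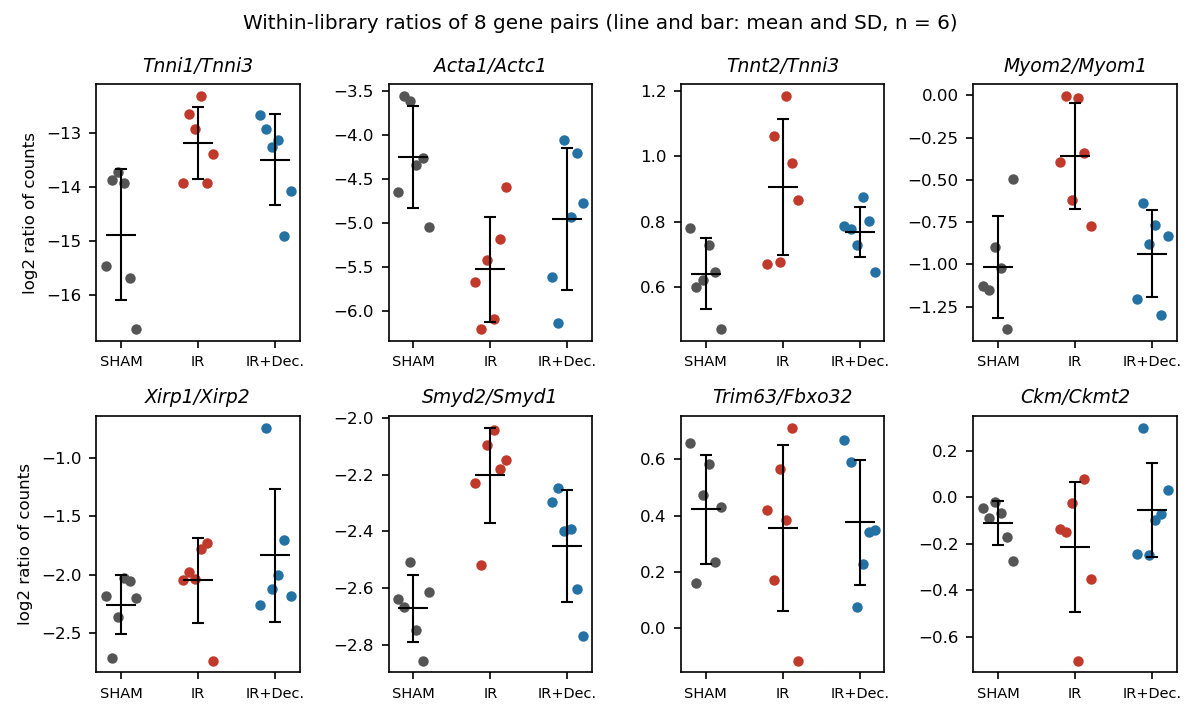
Log2 ratio of counts (y axes) of 8 gene pairs within each SHAM (grey), IR (red) and IR+Decursin (blue) library, with the mean and SD of 6 libraries. Acta1/Actc1 is lower in IR than in SHAM, Myom2/Myom1 and Smyd2/Smyd1 are higher, and Myom2/Myom1 in IR+Decursin lies near SHAM, at means of -0.94 and -1.02.

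Neighbouring genes of the same structures, taken from lists drawn up from textbook knowledge with earlier results known, moved both ways. With TMM factors 21.7% of all genes fell and 25.3% rose in IR. Of 30 other thin filament and Z-disc genes 10 fell and 9 rose in IR with TMM factors, and 1 fell (Lmod3) and 16 rose with scaling to cardiomyocyte genes, a scale on which 58.3% of all genes rose and 3.12% fell, so that a count of rises there is near the background. Leiomodin-3 (-0.89 ± 0.14, adjusted p = 4.71e-05) and the LIM protein Fhl2 (-0.60 ± 0.11, adjusted p = 0.000148) fell, whereas the non-muscle alpha-actinin Actn1 (1.45 ± 0.22, adjusted p = 5.85e-05) and the tropomyosin Tpm3 (0.89 ± 0.15, adjusted p = 7.47e-05) rose. Actn1 and Tpm3 are also expressed by fibroblasts, smooth muscle and immune cells. Of 9 M-band and titin-associated genes 4 fell and 0 rose (0 and 0 with scaling to cardiomyocyte genes), among them the muscle lamin-binding gene Mlip (-0.51) and the titin-binding ankyrin repeat gene Ankrd23 (-0.47). In 11 chaperones of the sarcomere 5 fell and 0 rose (3 and 2 with scaling to cardiomyocyte genes). Those that fell included the small heat shock genes Hspb3 (-1.08) and Hspb8 (-0.72) and the myosin chaperone Unc45b (-0.74). On the cardiomyocyte scale the rises in the M-band and chaperone lists lay below the 58.3% of all genes.

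In IR, 21.7% of all genes fell and 25.3% rose with TMM factors, and 3.12% and 58.3% with scaling to cardiomyocyte genes. Of 27 intercalated disc and costamere genes 11 fell and 2 rose with TMM factors, against 1 and 15 with scaling to cardiomyocyte genes. Itgb1bp2, melusin (-0.80), and the muscle caveolin Cav3 (-0.62) were down and talin-1, Tln1 (0.55), was up. Of 18 further genes of ubiquitin-dependent turnover and atrophy 10 fell and 2 rose (1, Klhl31, and 7 with scaling to cardiomyocyte genes), among them the muscle kelch protein Klhl31 (-0.88 ± 0.10, adjusted p = 5.35e-06) and the ligase scaffold Cul3 (-0.44), both down. Of 6 genes of creatine and oxygen handling, the adenylate kinase Ak1 fell (-0.67) and Gatm, the first enzyme of creatine synthesis, rose (1.18). Of 4 tested skeletal muscle isoforms Tnnt1, slow skeletal troponin T, fell (-1.07) and Tnnt3, the fast form, rose (2.39), at summed levels of the list of only 35.3 to 47.9 CPM in SHAM and 25.6 to 34.4 in IR. Against IR, IR+Decursin had 0 called genes in all of these lists. With 0.0% of all genes called there by edgeR, this is not particular to the lists. Against SHAM it had 3 falls and 8 rises of 30 other thin filament and Z-disc genes with TMM factors, 0 and 12 with total counts and 0 and 11 with scaling to cardiomyocyte genes. In the same order of scalings there were 6 falls and 2 rises, 0 and 6, and 0 and 7 of 27 intercalated disc and costamere genes. The chaperones had 3 falls and 0 rises, 2 and 0, and 2 and 1 of 11. The turnover genes had 3 and 2, 0 and 3, and 0 and 3 of 18. Of all genes, 11.8% fell and 17.5% rose there with TMM factors. The shares were 2.5% and 31.7% with total counts and 1.35% and 27.7% with scaling to cardiomyocyte genes. Rises in the disc and costamere, chaperone and turnover lists lay below these shares.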

How the data were processed

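Total RNA of 18 hearts was sequenced. Reads were processed with fastp, HISAT2 and HTSeq on GRCm39 per the submitters' processing notes, with no tool version or strand setting named there. The authors deposited raw counts per gene and FPKM values, and the FPKM equal counts divided by gene length and library total (largest relative deviation 1.58e-09 over 347198 values). Each library held 27525876 to 34974692 counts, which limits the precision of trace transcripts such as Tnni1. Libraries of a group differed by more than counting noise (lowest chi-square per degree of freedom 14.7), and each was taken as 1 animal per the labels.

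Counts were tested with edgeR 4.0.16 (R 4.3.3), with genes kept by filterByExpr, TMM factors, 1 quasi-likelihood fit over 18 libraries with robust dispersion, and Benjamini-Hochberg adjustment over 15088 genes. Log2 fold changes carry standard errors (±). The fit was tested on simulated data. Ratios used log2 counts plus 0.5. The members and lists were chosen with earlier results of these data known. Named in full are, per comparison, the called members with the 6 largest rises and falls (or, with none called, up to 3 higher and 3 lower with the smallest p), the members of 8 pairs, and up to 4 called genes of each other list. Promoters of 30 members were matched by symbol in RefSeq. The alternatives were DESeq2 1.42.0, voom with quality weights and trend fits on log2 FPKM (limma 3.58.1), other scalings and filters, the compared groups alone, a replicate block, and libraries left out. Leaving out the libraries with Xist together with IR+Decursin 6 was chosen after seeing the data.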

Additional observations from a re-analysis of the deposited data

Results flagged for a closer look

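In 135 groups of 6 libraries examined (the members' levels and the ratios), 8 held 1 library far from the other 5 by Dixon's criterion, and chance flags about 1 group in 20. Titin stood out at the high end in IR 5, with 2142 CPM against 1552 to 1769 in the other IR libraries, and in IR+Decursin 6, with 2869 CPM against 1775 to 2006. Xirp1 was high in IR 5, at 187 CPM against 121 to 139. In SHAM 2, Xirp2 (949 CPM against 598 to 701) and the chaperone gene Cryab (2686 CPM against 1602 to 1936) were both high. Des, desmin, was high in IR+Decursin 5, at 2289 CPM against 1295 to 1637. The log2 ratio of Xirp1 to Xirp2 was low in IR 6 (-2.74 against -2.04 to -1.73) and high in IR+Decursin 2 (-0.74 against -2.26 to -1.70).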

How the results depend on the processing

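In IR against SHAM, the 29 falls and 0 rises became 14 and 2 with total counts and in all 3 fits of log2 FPKM, and 8 and 6 with scaling to cardiomyocyte genes. All genes shifted too. With TMM factors 21.7% fell and 25.3% rose, with total counts 7.01% and 46.4%, and with cardiomyocyte genes 3.12% and 58.3%. In the FPKM fits 7.22% to 8.9% fell and 45.7% to 49.1% rose. DESeq2, the compared groups alone and the fit without the libraries with Xist and IR+Decursin 6 gave 1 rise (25.6%, 25.3% and 21.6% of all genes). In IR+Decursin against IR, DESeq2 called 4 members higher (2.48% of all genes). In IR+Decursin against SHAM, the 14 falls and 0 rises became 5 and 1 with total counts and with FPKM, and 4 and 1 with scaling to cardiomyocyte genes. Without the libraries with Xist and IR+Decursin 6 there was 1 rise (18.2% of all genes). Of all genes, 11.8% fell and 17.5% rose there with TMM factors, 2.5% and 31.7% with total counts, and 1.35% and 27.7% with cardiomyocyte genes. With FPKM 2.56% to 3.29% fell and 26.1% to 31.1% rose. On the cardiomyocyte scale the IR estimate turned positive for Actn2 (0.019), Nebl (0.019), Nexn (0.026), Pdlim5 (0.13), Flnc (0.46), Xirp1 (0.42), Des (0.48), Cryab (0.11), Smyd2 (0.25), Trim54 (0.022), Trim55 (0.091), and, called in neither fit, Synpo2l (0.30) and Xirp2 (0.25). With total counts 6 turned, namely Smyd2 (0.085) and the uncalled Synpo2l, Flnc, Xirp1, Xirp2 and Des, and Smyd2 turned with FPKM (0.078, 0.080 and 0.078). The scalings differ by their construction in what is held level. The median of all genes in IR against SHAM was -0.00 with TMM factors, 0.31 with total counts and 0.47 on the cardiomyocyte scale. With 1 library left out, IR against SHAM gave 25 to 30 falls (20.0% to 24.3% of all genes) and 0 to 1 rises (22.0% to 25.6%). IR+Decursin against IR gave 0 to 6 rises (0.0% to 4.62% of all genes). IR+Decursin against SHAM gave 10 to 20 falls (8.61% to 16.6% of all genes). Ratios called went from 3 to between 0 and 3, and from 1 to between 0 and 1.

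The replicate numbers did not pair the libraries (correlations of deviations -0.40 to 0.31, best match in 1 of 18 pairs). With the replicate block 28 members fell in IR and 13 in IR+Decursin against SHAM (20.7% and 9.86% of all genes), and 0 ratios were called. That blocked ratio test cannot bear on stability, since its smallest p (0.0312) hardly allows a call after adjustment over 24 tests. Without the libraries with Xist 0 ratios were called as well, with fewer libraries. Depth limits Tnni1, at 1 to 19 counts per library.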
